A study of Mus musculus with 21 samples.

Results

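The genes described here encode MHC class II and the proteins that load it with peptide, measured in mouse bone marrow B-lineage cells and in a mouse pre-B leukemia line. They were chosen by name: H2-Aa, H2-Ab1 and H2-Eb1 (chains of the surface molecules I-A and I-E), Cd74 (the invariant chain), H2-DMa, H2-DMb1 and H2-DMb2 (chains of the peptide exchange factor H2-M), H2-Oa and H2-Ob (chains of its modulator H2-O) and Ciita (the class II transactivator). Of the 10 genes, 9 had a probe set assigned to that symbol alone, with 19 such probe sets among the 34945 single-symbol probe sets of the array. H2-DMb1 was measured only together with H2-DMb2, on 2 shared probe sets. The probe set with the highest mean signal stood for each gene, giving 9 of the 14655 genes that passed a filter on low signal, and all 19 probe sets passed that filter.

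MHC class II molecules are surface heterodimers that show endosomal peptides to CD4+ T cells, and B cells display them throughout later development. New dimers assemble on the invariant chain, which is cut down to a fragment in the groove. H2-M exchanges this fragment for peptide and H2-O holds H2-M in check. Ciita, which does not bind DNA itself, drives the whole set by docking on RFX, CREB and NF-Y factors bound to X and Y boxes in each promoter, and in mouse B cells class II appears on the surface as pre-B cells mature.

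The series holds 21 arrays in 7 groups of 3. B220-positive bone marrow cells were sorted from wild-type mice, mice with a C/EBPbeta LAP transgene (Cebpb LAP tg), Blnk knockout mice (Blnk KO), and knockout mice that also carried the transgene (Blnk KO/LAP tg). BLNK is an adaptor of pre-B cell receptor signaling and LAP is an activating form of the transcription factor C/EBPbeta. The other 3 groups were LB31 cells, a pre-B acute lymphoblastic leukemia line derived from a Blnk KO mouse and grown with 5 ng/ml of interleukin 7, after transduction with an empty pMY retrovirus, with Blnk cDNA, or with one for a loss-of-function mutant (YF). LB31 is a single line, so its 3 groups speak for 1 leukemia. Age and the promoter driving the transgene are not given in the sources used here. Nor do the labels say whether the 3 arrays of a group came from separate mice or cultures, so p-values measure only the spread between these samples.

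Values are MAS5 signals placed on a log2 scale and quantile normalized, called normalized log2 signal here; a difference of 1 is a doubling. A gene was called changed at an adjusted p under 0.05 in limma (Benjamini-Hochberg over all 14655 genes), and "did not overlap" means that every array of one group lay above every array of the other. Median deposited signal ran from 15.3 to 31.5 over the arrays, and arrays of 1 group correlated at 0.963 to 0.980 over all genes. Cebpb averaged 10.05 in Cebpb LAP tg and 9.90 in Blnk KO/LAP tg marrow against 5.43 in wild-type and 5.02 in Blnk KO marrow, and in LB31 it averaged 10.22, 10.11 and 10.09 with the empty, Blnk and YF vectors, the level of the transgenic groups. The Blnk probe set did not separate the marrow genotypes (12.44 in wild-type and 12.37 in Blnk KO marrow) and does not check the knockout labels. In LB31 it went against the label, at 9.63 ± 0.02 on the empty-vector arrays, 8.56 ± 0.06 on those labelled Blnk and 9.40 ± 0.08 on those labelled YF. No source used here says whether it reads the transduced cDNA, and these arrays are called by their labels. The mean over 7 B-lineage markers was 10.45 to 10.55 in wild-type, 10.28 to 10.60 in Cebpb LAP tg, 10.02 to 10.35 in Blnk KO and 9.54 to 9.81 in Blnk KO/LAP tg marrow, and 9.04 to 9.48 in LB31. Over 7 neutrophil markers it was 9.94 to 10.36, 10.15 to 12.11, 9.82 to 10.89 and 10.84 to 11.43 in the same order of genotypes, and 2.86 to 4.03 in LB31; their part in the class II values was not tested.

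Because these genes moved together, the promoters are shown first. RefSeq promoters (GRCm38.p6, 250 bases before to 50 after the start) were in hand for 7 of the 10 genes, H2-DMa with 2 entries; H2-Ab1, Cd74 and Ciita had no entry. In all, 6 windows of 130 bases are printed 5′ to 3′ on the gene's strand, all from chromosome 17, with capitals for the letters searched for: GATTGG, the Y box core (CCAATC on the other strand), AGCAAC, an X box core, AACNNATGA, an X to X2 stretch, and TGACGTCA, the cyclic AMP response element that CREB factors bind. Where AGCAAC and the stretch overlap, in H2-Eb1 and H2-Ob, the capitals run through both.
H2-Aa, minus strand, chr17:34287824-34287953: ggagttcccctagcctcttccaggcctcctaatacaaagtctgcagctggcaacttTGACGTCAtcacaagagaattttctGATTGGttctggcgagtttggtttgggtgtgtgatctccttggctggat
H2-Eb1, plus strand, chr17:34305737-34305866: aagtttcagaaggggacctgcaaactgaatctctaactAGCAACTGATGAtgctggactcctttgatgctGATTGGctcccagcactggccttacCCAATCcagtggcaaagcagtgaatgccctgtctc
H2-DMb1, plus strand, chr17:34153061-34153190: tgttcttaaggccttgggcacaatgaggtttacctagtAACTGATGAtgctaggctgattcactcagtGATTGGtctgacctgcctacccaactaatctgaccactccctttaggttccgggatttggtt
H2-DMb2, plus strand, chr17:34145119-34145248: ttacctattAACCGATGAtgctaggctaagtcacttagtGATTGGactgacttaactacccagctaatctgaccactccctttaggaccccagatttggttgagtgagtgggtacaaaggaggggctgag
H2-Oa, plus strand, chr17:34092249-34092378: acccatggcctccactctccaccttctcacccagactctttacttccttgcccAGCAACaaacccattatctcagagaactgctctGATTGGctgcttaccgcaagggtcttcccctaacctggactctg
H2-Ob, plus strand, chr17:34238775-34238904: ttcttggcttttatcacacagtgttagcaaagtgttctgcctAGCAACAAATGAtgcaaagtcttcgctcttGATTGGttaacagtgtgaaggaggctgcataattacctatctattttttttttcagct

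GATTGG stood within 250 bases upstream in 7 of the 8 promoters of these genes and in 14.6% of all 32851 RefSeq promoters, searched on both strands. AGCAAC was in 3 of the 8 and in 12.2% of all. The stretch AACNNATGA, whose letters were chosen after these windows had been read, was in 4 of the 8 (H2-DMb1, H2-DMb2, H2-Ob and H2-Eb1) and in 2.49% of all. H2-Aa held none of these X letters exactly but carried TGACGTCA, found in 1.55% of all promoters, from 74 to 67 bases before its start. Just upstream of TGACGTCA stands ggcaac, which differs from AGCAAC in its first letter. From the first base of the stretch to the first base of GATTGG lay 29 bases in H2-Eb1, 30 in H2-DMb1, 30 in H2-DMb2 and 27 in H2-Ob. The upstream sequences of H2-DMb1 and H2-DMb2 were identical at 83.3% of 209 aligned bases. Such matches describe the letters, and no binding was measured.

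All 9 measured genes were highest in wild-type marrow and lower in each other marrow genotype, with the lowest marrow level in Blnk KO/LAP tg cells. H2-Aa, the alpha chain of I-A, gave 13.01, 13.15 and 13.01 in wild-type marrow, 12.76, 12.75 and 12.85 in Cebpb LAP tg, 11.53, 12.08 and 11.93 in Blnk KO, and 9.39, 9.37 and 9.19 in Blnk KO/LAP tg. The 4 genotypes formed 4 separate steps, with no overlap between neighbors. H2-Ab1, its beta chain, gave 12.04, 12.31 and 11.92, then 11.48, 11.39 and 11.66, then 9.51, 10.06 and 10.11, then 7.94, 8.58 and 8.49 in the same order of genotypes. Its steps from Cebpb LAP tg to Blnk KO (-1.61) and from there to the double genotype (-1.56) were alike within error (SE 0.17). H2-Eb1, the beta chain of I-E, gave 12.30, 12.34 and 12.22 in wild-type, 11.67, 11.52 and 11.97 in Cebpb LAP tg, 9.71, 10.20 and 10.10 in Blnk KO, and 7.77, 7.66 and 7.02 in Blnk KO/LAP tg marrow. Its steps did not overlap either. H2-Ea, the gene of the other I-E chain, did not pass the low-signal filter, so H2-Eb1 RNA does not speak for I-E on the surface.

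Cd74, whose product chaperones new class II dimers and plugs their groove, gave 11.70, 11.84 and 11.69 in wild-type, 11.36, 11.08 and 11.45 in Cebpb LAP tg, 9.59, 10.66 and 10.07 in Blnk KO, and 7.73, 7.72 and 7.43 in Blnk KO/LAP tg marrow. The Blnk KO arrays spread over more than 1 log2 unit but stayed clear of the groups above and below. H2-DMa, the alpha chain of the exchange factor, gave 10.12, 10.41 and 10.06, then 9.69, 9.28 and 9.99, then 8.04, 8.52 and 8.38, then 6.79, 6.83 and 6.97. For H2-DMb2, one of its beta chains, the values were 10.46, 10.62 and 10.37, then 9.72, 9.32 and 9.85, then 8.36, 8.96 and 8.46, then 5.46, 5.21 and 5.10. Both followed the order of the surface chains, and H2-DMb2 ended lower than H2-DMa relative to its own wild-type level.

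H2-Oa, the alpha chain of the modulator, gave 9.57, 9.81 and 9.51 in wild-type, 9.28, 9.09 and 9.33 in Cebpb LAP tg, 8.63, 8.86 and 8.46 in Blnk KO, and 7.83, 7.68 and 7.85 in Blnk KO/LAP tg marrow. Its order was the same, with smaller steps. H2-Ob, the beta chain, gave 11.89, 11.93 and 11.95 in wild-type, 11.22, 11.30 and 11.30 in Cebpb LAP tg, 11.50, 11.44 and 11.04 in Blnk KO, and 10.79, 10.16 and 10.46 in Blnk KO/LAP tg marrow. It was the exception in order: Cebpb LAP tg and Blnk KO overlapped and did not differ beyond their spread (11.27 ± 0.05 and 11.33 ± 0.25, SD, n = 3; adjusted p = 0.838, limma). Ciita, the transactivator, gave 7.71, 8.07 and 7.70, then 7.13, 7.004 and 7.54, then 5.30, 5.71 and 5.51, then 4.55, 4.07 and 4.28 in the order used above. Its Blnk KO/LAP tg values came close to the level of the filter on low signal, which averaged 4.06.

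**Figure D1:**
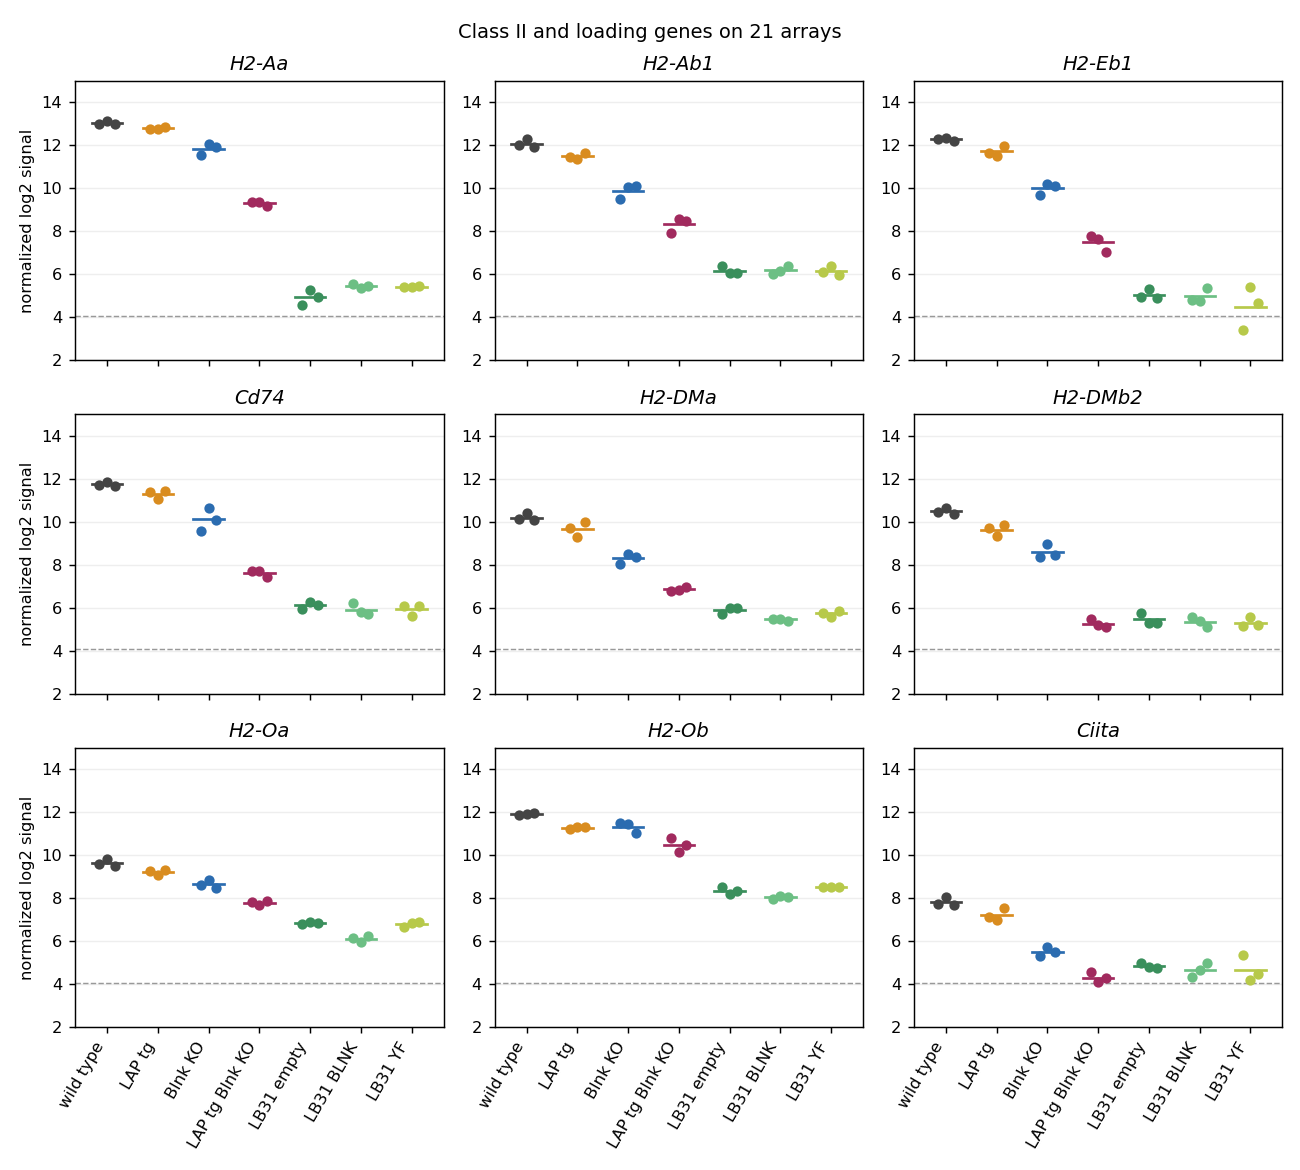
Normalized log2 signal (vertical axis) of 9 class II and loading genes on 21 arrays, grouped by genotype or vector (horizontal axis). Points are arrays, short lines are means of 3, and the dashed line is the mean level of the filter on low signal, 4.06; H2-Aa steps down from about 13.06 in wild-type to 9.32 in Blnk KO/LAP tg marrow and lies at 4.93 in LB31 with the empty vector.

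Against wild-type marrow, Blnk KO marrow had lower signal for all 9 genes. Of all 14655 genes 10.0% were called lower and 20.2% were called in either direction, and the median change was -1.89 over the 9 genes and 0.01 over all genes. Ciita fell by 2.32 ± 0.25 on the log2 scale (SE), which is 4.99-fold lower (adjusted p = 7.27e-07). The surface chains fell too, with changes of -2.28 for H2-Eb1 (4.87-fold), -2.20 for H2-Ab1 (4.58-fold) and -1.21 for H2-Aa (2.31-fold). Both H2-M chains fell 3.70-fold, at -1.89 ± 0.15 for H2-DMa and -1.89 ± 0.18 for H2-DMb2. The value for H2-Aa is that of 1 probe set of 4, and the other 3 gave -1.70, -1.84 and -2.09. Cd74 fell by 1.63 ± 0.20 (3.10-fold, adjusted p = 2.77e-06). The modulator chains had the smallest changes, -0.98 ± 0.11 for H2-Oa (1.97-fold) and -0.60 ± 0.12 for H2-Ob (1.51-fold, adjusted p = 0.000996). In every one of the 9 genes the 3 Blnk KO arrays lay below the 3 wild-type arrays, a separation in either direction that 33.8% of all genes showed. On the deposited scale without normalization the call for H2-Ob was lost (-0.37, adjusted p = 0.122, against 0.000184 to 0.122 over 31 other settings).

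In Cebpb LAP tg marrow the decreases were smaller. The ratio of 3′ to 5′ Gapdh signal, a sign of RNA quality, was 0.874 to 1.04 on its arrays against 0.764 to 0.805 in wild-type marrow, and its part in the result was not tested. Of the 9 genes 5 were called lower than in wild-type, against 4.12% of all genes (8.30% in either direction), with changes for H2-DMb2 of -0.85 ± 0.18 (adjusted p = 0.00565), H2-Ob of -0.65 ± 0.12 (adjusted p = 0.00218), H2-Ab1 of -0.58 ± 0.17 (adjusted p = 0.0413), H2-DMa of -0.54 ± 0.15 (adjusted p = 0.0321) and H2-Oa of -0.39 ± 0.11 (adjusted p = 0.0311). The other 4 genes missed the threshold, with differences of -0.60 for Ciita (95% interval -1.13 to -0.08, adjusted p = 0.153), -0.56 for H2-Eb1 (-1.22 to 0.09), -0.44 for Cd74 (-0.85 to -0.03) and -0.27 for H2-Aa (-0.55 to 0.02). Groups did not overlap for any of the 9 genes, nor for 24.3% of all genes. The count of genes called was 2, H2-DMb2 and H2-Ob, when the marrow arrays were normalized and fitted alone (3.99% of 13342 genes called). It was also 2 without wild-type replicate 1, without wild-type replicate 2 or without Cebpb LAP tg replicate 2. It was 3 without wild-type replicate 3 or without Cebpb LAP tg replicate 1. With every probe set tested, 6 of the 19 were called lower (4.12% of genes in the main fit). The other 2 sets of H2-DMb2 missed the threshold, at -0.58 (adjusted p = 0.34) and -0.52 (adjusted p = 0.491). So did the set that stood for H2-Ab1 (adjusted p = 0.0514) and H2-DMa 1459872_x_at (-0.90, adjusted p = 0.0633). H2-Ab1 1425477_x_at (-0.91) and H2-Aa 1443783_x_at (-0.89) were called.

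Marrow with both changes had the lowest signal for all 9 genes, at a median of -3.74 against wild-type (0.04 over all genes, of which 14.8% were called lower and 32.0% in either direction). H2-DMb2 fell by 5.23 ± 0.18, which is 37.5-fold (adjusted p = 1.24e-14). The change was -4.80 ± 0.32 for H2-Eb1 (27.9-fold), -4.11 ± 0.20 for Cd74 (17.3-fold), -3.76 ± 0.17 for H2-Ab1 (13.5-fold) and -3.74 ± 0.14 for H2-Aa (13.4-fold). Ciita itself fell by 3.52 ± 0.25 (11.5-fold), a value between those of the surface chains and that of H2-DMa, -3.34 ± 0.15 (10.1-fold). The H2-O chains again changed least, H2-Oa by -1.84 ± 0.11 (3.58-fold) and H2-Ob by -1.46 ± 0.12 (2.74-fold). No array of the double genotype overlapped a wild-type array in any of the 9 genes, nor in 45.8% of all genes. This comparison, and those of the single genotypes, share the 3 wild-type arrays.

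**Figure D2:**
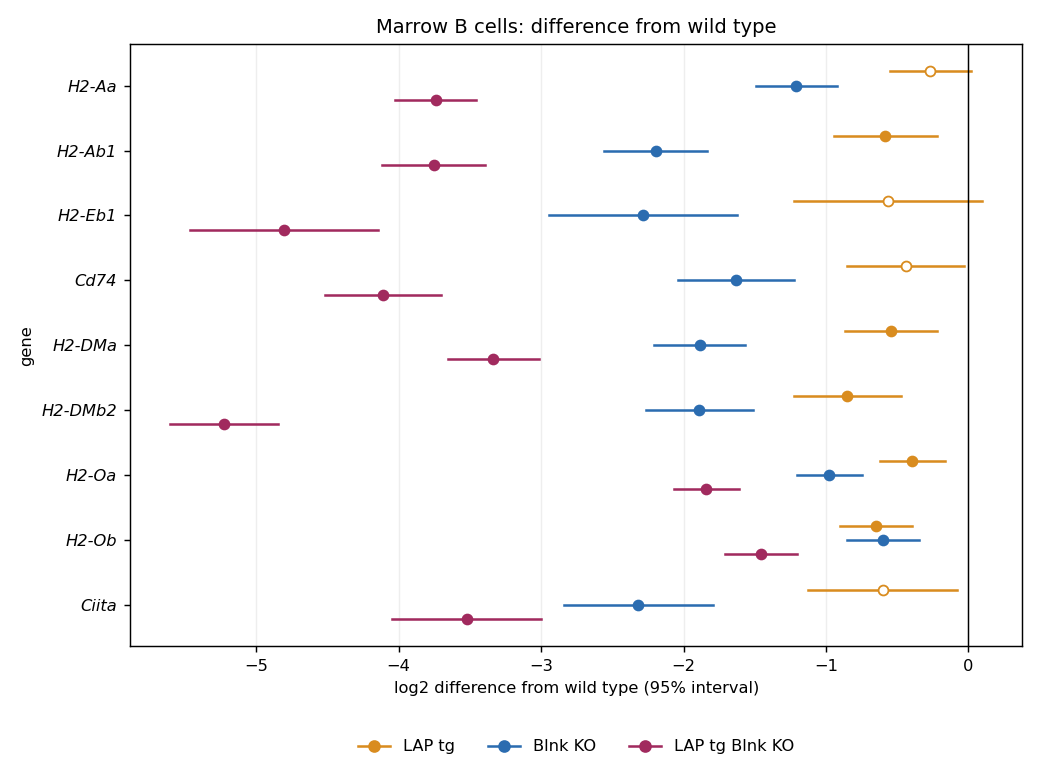
Log2 difference from wild-type marrow (horizontal axis) for 9 class II genes (vertical axis) in Cebpb LAP tg, Blnk KO and Blnk KO/LAP tg marrow. Points are estimates from limma over 3 against 3 arrays, lines are 95% intervals, and filled points passed an adjusted p of 0.05; every filled point lies left of 0, and H2-DMb2 in the double genotype lies farthest, at -5.23.

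Set against Blnk KO marrow, the double genotype was lower for all 9 genes (5.10% of all genes were called lower, 10.5% in either direction). The differences were largest for H2-DMb2 (-3.34, 10.1-fold, adjusted p = 8.23e-11), H2-Aa (-2.53, 5.78-fold), H2-Eb1 (-2.52) and Cd74 (-2.48). They were -1.56 for H2-Ab1, -1.45 for H2-DMa, -1.20 for Ciita (adjusted p = 0.00274), and -0.86 for both H2-Oa and H2-Ob. Groups did not overlap for any of the 9, against 24.5% of all genes. Against Cebpb LAP tg marrow the double genotype was lower for all 9 as well (12.9% of all genes lower, 28.4% in either direction), from -4.38 for H2-DMb2, -4.24 for H2-Eb1 and -3.67 for Cd74 to -1.45 for H2-Oa and -0.81 for H2-Ob. Again no groups overlapped, against 36.3% of all genes. On the deposited scale the last of these was -0.37 with an adjusted p of 0.0863 (1.46e-06 to 0.0863 over 31 other settings).

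The difference made by the transgene was itself compared between Blnk KO and Blnk-sufficient marrow, as an interaction term. In all, 6 genes were called, each more negative in Blnk KO marrow, against 2.30% of all genes in that direction and 4.18% in either. The term was -2.49 ± 0.26 for H2-DMb2 (adjusted p = 6.06e-06), -2.26 ± 0.19 for H2-Aa (adjusted p = 5.53e-07), -2.04 ± 0.28 for Cd74 (adjusted p = 0.000122) and -1.96 ± 0.45 for H2-Eb1 (adjusted p = 0.0156). H2-Aa shows the pattern in its group means: 13.06 ± 0.08 and 12.79 ± 0.05 without and with the transgene in Blnk-sufficient marrow, and 11.85 ± 0.28 and 9.32 ± 0.11 in Blnk KO marrow (SD, n = 3 each). These 4 are I-A and I-E chains, the chaperone that fills their groove and a chain of the factor that empties it. H2-Ab1 (-0.98, adjusted p = 0.0258) and H2-DMa (-0.91, adjusted p = 0.0201) passed narrowly. Neither passed within marrow alone (adjusted p = 0.0956 and 0.0802, with 1.73% of genes called), and over all settings their adjusted p ran from 0.0062 to 0.459 and from 0.00316 to 0.26. With wild-type replicate 1, wild-type replicate 3 or Blnk KO replicate 2 left out, 4 genes were called. Ciita (-0.60, 95% interval -1.34 to 0.14, adjusted p = 0.427), H2-Oa (-0.47, -0.80 to -0.15, adjusted p = 0.0985) and H2-Ob (-0.21, -0.56 to 0.15) did not pass. The probe sets of Ciita differed here: 1421211_a_at passed at -2.26 (adjusted p = 0.00817 in the fit of every probe set), on a signal of 3.09 ± 0.65 in the double genotype that is under the filter level, and 1447075_at gave 0.63 (adjusted p = 0.753).

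Across the 12 marrow arrays the 36 pairs of class II genes correlated at a median of 0.975, between 0.820 and 0.994; these arrays share genotypes, so the values restate the group steps. In the 9 LB31 arrays, where levels were low, the median was -0.05 and the range -0.80 to 0.81. The single genes closest in pattern to the mean of the 9 over the marrow arrays were Bank1 (r = 0.995), an adaptor of B cell receptor signaling, Cnr2 (0.995), the peripheral cannabinoid receptor, Tlr1 (0.994), Ccr7 (0.993), a homing receptor, and Btla (0.993), an inhibitory receptor. At the opposite end stood Bace1 (-0.987), Epg5 (-0.986) and Epb41l4b (-0.986). Over all 21 arrays the closest were Ccr7 (0.995), Ralgps2 (0.995), Cd55 (0.994), which shields cells from complement, and Marchf1 (0.993), whose product is the ubiquitin ligase that removes class II from the surface.

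The other probe sets gave the same direction in marrow. In Blnk KO against wild-type marrow 18 of the 19 were called lower (14.6% of 33764 probe sets were called), and the remaining set, Ciita 1447075_at, changed by -1.37 with an adjusted p of 0.0508. All 19 were lower in Blnk KO/LAP tg than in wild-type marrow (25.1% called). Sizes differed between sets for 1 gene: -5.46 to -3.74 for the 4 sets of H2-Aa, -4.68 to -1.63 for the 3 of Ciita, -4.66 to -3.76 for the 3 of H2-Ab1 and -5.23 to -4.80 for the 3 of H2-DMb2. The set that stood for H2-Aa, 1435290_x_at, gave the smallest change of its 4. The lowest Ciita change came from a set at 4.63 ± 0.27 in wild-type marrow, close to the filter level.

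Both probe sets shared by H2-DMb1 and H2-DMb2 fell too. 1418638_at changed by -1.54 (adjusted p = 0.000449) and 1449580_s_at by -1.76 (adjusted p = 0.000384) in Blnk KO marrow, and by -3.49 and -4.46 in the double genotype. They cannot assign a share to H2-DMb1, whose upstream sequence printed above holds the same stretch as that of H2-DMb2. The set shared by H2-Ob and Gm20506, 1422201_at, changed more than the set of H2-Ob alone, by -1.33 against -0.60 in Blnk KO marrow and by -2.58 against -1.46 in the double genotype.

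In the genome 8 of the 10 genes lie side by side in the class II region of chromosome 17, so their neighbors served as a comparison. In the RefSeq order (GRCm38.p6) from H2-Oa to H2-Eb2 there are 14 protein-coding genes, of which Brd2, Psmb9, Tap1, Psmb8 and Tap2 sit among the class II genes without belonging to them: Psmb8 and Psmb9 are immunoproteasome subunits, Tap1 and Tap2 carry peptides to class I, and Brd2 is a chromatin reader. All 7 class II genes tested here fell in Blnk KO marrow, where 10.0% of all genes were called lower and 20.2% in either direction. None of these 5 neighbors was called by limma (-0.08 to 0.24, 2 with an unadjusted p under 0.05). In the double genotype the 7 changed by -5.23 to -1.46, while the 5 neighbors ran from -0.28 to 0.16 with none called and 0 at an unadjusted p under 0.05. Of all genes 14.8% were called lower there and 32.0% in either direction. Over 5 genes, a count of 0 called does not set the neighbors apart from all genes. H2-Eb2, a class II gene at the end of the row, changed by -1.53 ± 0.21 in Blnk KO marrow (adjusted p = 1.34e-05) and by -3.03 in the double genotype (adjusted p = 2.78e-10). In Cebpb LAP tg marrow 1 neighbor was called, Psmb8 at -0.25 (adjusted p = 0.0419), against 8.30% of all genes in either direction.

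**Figure D3:**
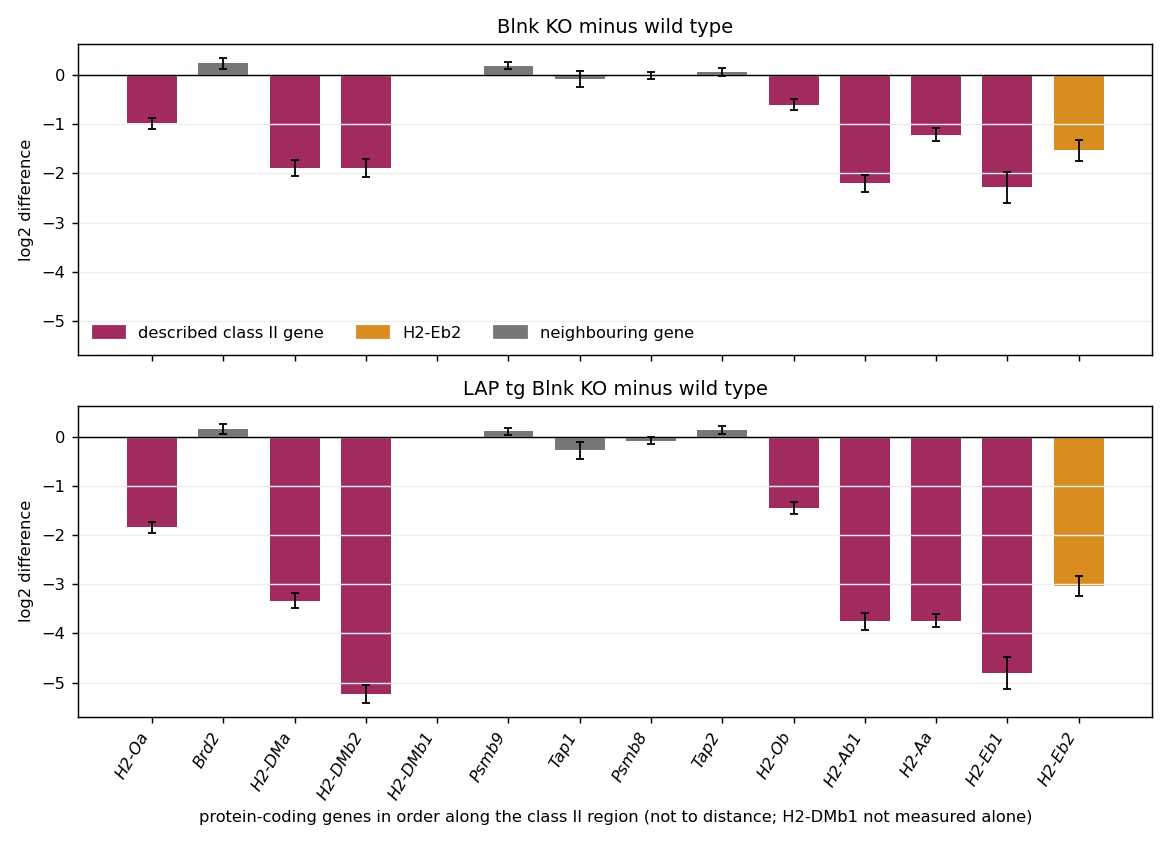
Log2 difference from wild-type marrow (vertical axis, bars with SE) along the 14 protein-coding genes of the class II region in their order (horizontal axis, not to distance), in Blnk KO marrow above and Blnk KO/LAP tg marrow below, 3 arrays a group. H2-DMb1, not measured alone, has no bar. The 7 measured class II genes and H2-Eb2 reach down, to -5.23 for H2-DMb2, while the 5 neighbors stay between -0.28 and 0.24.

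Beside the promoter letters, given as values and not tested over so few genes: with the stretch AACNNATGA, H2-DMb2, H2-Eb1 and H2-Ob changed by -5.23, -4.80 and -1.46 in the double genotype, and without it H2-Aa, H2-Oa and H2-DMa (whose window is not printed) changed by -3.74, -1.84 and -3.34.

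The factors that bind the class II promoters moved little beside their targets. Of 7 RFX, NF-Y and CREB genes tested, 1 was lower in Blnk KO than in wild-type marrow (10.0% of all genes), Rfx5 at -0.36 (adjusted p = 0.011), and in the double genotype 2 were lower (14.8% of all genes), Rfxank at -0.58 (adjusted p = 0.00385) and Rfx5 at -0.57 (adjusted p = 9.11e-05), and 1 higher (17.2%), Nfya at 0.34 (adjusted p = 0.0112). None of the 7 was called by limma between the double genotype and Blnk KO marrow (2 had an unadjusted p under 0.05), where 10.5% of all genes were called. Over 7 genes a count of 0 is near that share. All 9 class II genes were lower in the same comparison, and the part of these factors was not tested. Of 12 genes known to act on Ciita, 4 were lower and 1 higher in Blnk KO marrow (10.0% and 10.2% of all genes): Prdm1, a repressor of Ciita in plasma cells, at -1.22, Spi1 (PU.1) at -0.63, Irf4 at -0.42 and Irf8 at 0.47 were among them. Between the double genotype and Blnk KO marrow 3 were lower (5.10% of all genes), Irf8 at -0.96, Spib at -0.92 and Irf1 at -0.73, and the same 3 had a negative interaction term (-1.10, -1.13 and -0.73).

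Endosomal enzymes that cut the invariant chain and antigens changed in part. In Blnk KO marrow 5 of 9 were lower (10.0% of all genes) and none higher, among them Ctsh (-1.40), Ifi30 (-0.58), the thiol reductase of the endosome, Lgmn (-0.52) and Ctsz (-0.41). In Cebpb LAP tg marrow 4 of the 9 were higher (4.18% of all genes) and none lower, Ctsd (1.11), Ctsb (0.96), Lgmn (0.66) and Ctsz (0.61). Monocyte markers were higher there too, with a list mean over 8 markers of 8.23, 8.46 and 9.37 on the Cebpb LAP tg arrays against 7.94 to 8.15 in wild-type marrow and 2 of the 8 called higher, and their part in the result was not tested. The double genotype had 4 lower (14.8% of all genes), led by Ctsh (-2.54) and Ifi30 (-1.67), and 2 higher (17.2%), including Ctsd (0.88). Of 3 genes of class II turnover, Cd83 (-2.59) and Marchf1 (-2.24) were lower in Blnk KO marrow (10.0% of all genes). In the double genotype Marchf1 (-4.23) and Cd83 (-4.12) were lower (14.8%). Among 4 costimulation genes, Cd86 (-1.06), Icosl (-0.98) and Cd40 (-0.74) were lower in Blnk KO marrow (10.0% of all genes). All 4 were lower in the double genotype (14.8%), with Cd40 at -3.20. Class I chains changed little: of 4 tested, B2m (0.20) and H2-K1 (0.18) were higher in Blnk KO marrow (10.2% of all genes). H2-M3 (-0.34) was the 1 called in the double genotype (32.0% of all genes in either direction).

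Markers of B cell stage moved with the class II genes, on lists chosen with earlier results of these data known. Among the 6 tested markers of immature and mature B cells, Ccr7, Btla and Cd55 are also genes named above as closest in pattern. This likeness is therefore not an independent test. The mean over 6 tested markers of immature and mature B cells was 10.48 to 10.65 in wild-type, 9.84 to 9.97 in Cebpb LAP tg, 8.73 to 9.12 in Blnk KO and 5.87 to 6.19 in Blnk KO/LAP tg marrow. Of these, 5 were lower in Blnk KO marrow (median -2.02), against 10.0% of all genes. All 6 were lower in the double genotype (median -4.43), against 14.8% of all genes. All 6 also had a negative interaction term that was called, against 2.30% of all genes. The mean over 7 markers of pro-B and large pre-B cells was 8.97 to 9.32 and 9.15 to 9.41 in the 2 Blnk-sufficient groups, and 10.74 to 10.85 and 10.72 to 10.92 in the 2 knockout groups. In sorted bulk cells, fewer class II-positive cells and less class II RNA in each cell cannot be told apart, and the part of B cell stage in the result was not tested. Of other cells that carry class II, plasmacytoid dendritic cell markers (6) averaged 7.51 to 7.86 in wild-type, 6.92 to 7.23 in Cebpb LAP tg, 7.80 to 8.27 in Blnk KO and 5.88 to 6.92 in the double genotype. The mean over 6 conventional dendritic cell markers with a probe set, 5 of them tested, stayed between 4.49 and 5.94 on all marrow arrays.

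**Figure D4:**
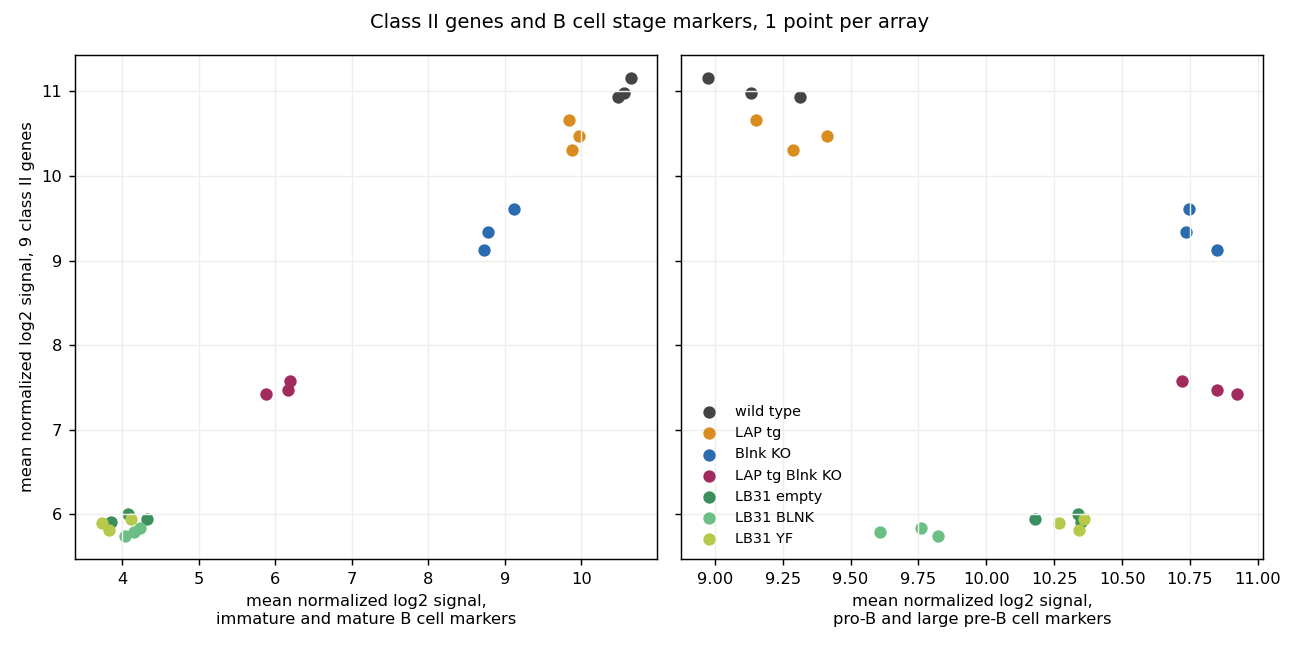
Mean normalized log2 signal of 9 class II genes (vertical axis) against that of markers of immature and mature B cells (left) and of pro-B and large pre-B cells (right), 1 point per array and colors for the 7 groups. The marker lists were chosen with earlier results of these data known. On the left the 4 marrow genotypes descend together, from 10.65 at the highest wild-type array to 5.87 at the lowest Blnk KO/LAP tg array on the horizontal axis; on the right the 2 knockout genotypes lie at about the same marker level but at different class II levels.

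LB31 cells gave low class II signal. With the empty vector H2-Aa gave 4.56, 5.29 and 4.95, H2-Eb1 4.94, 5.30 and 4.91, Cd74 5.93, 6.28 and 6.13, and H2-Ab1 6.38, 6.06 and 6.06. Against Blnk KO marrow, the genotype of the mouse the line came from, though its Cebpb signal was at the transgenic level, all 9 genes were lower, where 29.9% of all genes were lower and 59.3% called in either direction. The difference was -6.92 for H2-Aa, and H2-Eb1 differed by -4.95, Cd74 by -3.99, H2-Ab1 by -3.73, H2-DMb2 by -3.14, H2-Ob by -2.99, H2-DMa by -2.42 and H2-Oa by -1.80. These sizes depend on the set that stood for each gene. Over all sets of a gene they ran from -6.98 to -5.315 for H2-Aa and -5.66 to -3.73 for H2-Ab1. For H2-DMb2 they ran from -5.12 to -3.14, and for H2-DMa from -2.42 to -0.85. The groups did not overlap for any of the 9, nor for 63.6% of all genes. On the sets that stood for each gene Ciita differed least, by -0.67 ± 0.25 (95% interval -1.20 to -0.15, adjusted p = 0.0258). That last call was lost without Blnk KO replicate 2 or 3 or LB31 empty replicate 2 or 3, each left out alone (adjusted p = 0.0533 to 0.0961, and 4.9e-05 to 0.0961 over 30 other settings). Its other sets gave -2.73 (1421211_a_at, adjusted p = 2.23e-07, with the line under the filter level) and -0.93 (1447075_at, adjusted p = 0.0946). A cultured line and freshly sorted marrow differ in much besides leukemia, including the neutrophil transcripts, and these cannot be told apart here.

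Set beside Blnk KO/LAP tg marrow, the line was lower for 7 of the 9 genes (30.4% of all genes lower, 58.8% in either direction), H2-Aa differing by -4.39, H2-Eb1 by -2.43, H2-Ab1 by -2.17, H2-Ob by -2.13, Cd74 by -1.51, H2-DMa by -0.97 and H2-Oa by -0.94. The groups did not overlap for 8 of the 9, against 64.2% of all genes. Ciita stood at 4.84 ± 0.11 in the line and 4.30 ± 0.24 in that marrow (difference 0.53, 95% interval 0.01 to 1.06, adjusted p = 0.0748). H2-DMb2 stood at 5.45 ± 0.27 and 5.26 ± 0.18 (difference 0.19, -0.18 to 0.57, adjusted p = 0.372). Without normalization between arrays the H2-DMb2 difference turned to -0.60 (adjusted p = 0.016), and its other 2 probe sets, in the fit of all sets (55.8% called), gave -0.78 (adjusted p = 0.0462) and -1.98 (adjusted p = 0.000109). For H2-DMa the sets disagreed in sign, -0.97 on the set that stood for it and 0.68 on 1459872_x_at (adjusted p = 0.0445).

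H2-Ob gave 8.50, 8.19 and 8.31 in LB31 with the empty vector, below every marrow array. Along the region 4 of the 5 neighbors went the other way in LB31. Against Blnk KO marrow Tap2 (1.75), Brd2 (0.83), Psmb8 (0.52) and Psmb9 (0.20) were higher (29.4% of all genes). The 7 class II genes were lower there (29.9%). The remaining neighbor, Tap1, was not called, at -0.30 (adjusted p = 0.141). H2-Eb2, which had fallen with the class II genes in marrow, was at -0.26 against Blnk KO marrow (adjusted p = 0.295). It was higher than in the double genotype by 1.24 (adjusted p = 2.4e-05). Among regulators, 10 of 12 genes acting on Ciita were lower in LB31 than in Blnk KO marrow (29.9% of all genes), with Irf4 and Ebf1 both at -1.88, and all 9 endosomal enzymes were lower in the same comparison, led by Ctsh (-6.42) and Ifi30 (-5.36). Immature and mature B cell markers averaged 3.85 to 4.33 in the line, and Ms4a1 (CD20) was at 3.78, under the filter level.

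The Blnk vector in LB31 asks what the adaptor changes in leukemia cells, with the YF mutant beside it; the groups are named by their labels, which the Blnk probe set went against. Few class II genes differed beyond their spread: 2 of the 9 were called between arrays labelled Blnk and the empty vector, against 6.33% of all genes in either direction (2.55% higher, 3.79% lower). H2-Oa gave 6.79, 6.90 and 6.85 in empty-vector cells, 6.15, 5.97 and 6.22 in cells labelled Blnk, and 6.68, 6.84 and 6.89 in those labelled YF. Only the arrays labelled Blnk were low, with differences of -0.74 ± 0.11 against empty (adjusted p = 0.000178, 9.15e-05 to 0.00344 over 31 other settings) and -0.69 ± 0.11 against YF (adjusted p = 0.000589). H2-Aa gave 5.56, 5.35 and 5.45 on arrays labelled Blnk and 5.41, 5.40 and 5.45 on those labelled YF. On this set its difference from the empty vector was 0.52 ± 0.14 for the Blnk label (adjusted p = 0.0236) and 0.49 for YF (95% interval 0.21 to 0.77, adjusted p = 0.264), and the Blnk and YF arrays overlapped. The 4 sets of H2-Aa differed in sign, from -0.31 to 0.62 for the Blnk label, with 1 called higher and 3 not called (4.34% of probe sets called). For YF they ran from -0.24 to 0.49, with 0 called (0.0474%). The Blnk call for H2-Aa was lost without any one of empty replicates 1 and 3 and Blnk replicates 1 and 3 (adjusted p = 0.0646 to 0.112) and when LB31 was fitted alone (0.49, adjusted p = 0.152, with 15.9% of 13034 genes called; 0.00222 to 0.152 over 31 other settings).

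H2-Ob gave 7.96, 8.12 and 8.04 on arrays labelled Blnk and 8.53, 8.53 and 8.50 on those labelled YF, with the empty-vector values given above between or beside them. Blnk minus YF was -0.48 ± 0.12 (adjusted p = 0.0307), making 2 of 9 genes called in that comparison against 3.25% of all genes (2.02% lower). Leaving out any one of its 6 arrays removed the call for H2-Ob (adjusted p = 0.0546 to 0.131), and over 31 other settings it ran from 0.00142 to 0.131. Against the empty vector the Blnk difference was -0.29 (95% interval -0.54 to -0.04, adjusted p = 0.178) in the fit of all arrays, and was not called. With LB31 fitted alone it was -0.30 (adjusted p = 0.0242, with 15.9% of 13034 genes called). That was the lowest adjusted p over 31 other settings, which ran from 0.0242 to 0.675. The set shared with Gm20506 was also lower on arrays labelled Blnk (-0.52, adjusted p = 0.0192). Both H2-O chains therefore had their lowest LB31 values on arrays labelled Blnk, at group means of 6.11 ± 0.13 for H2-Oa and 8.04 ± 0.08 for H2-Ob.

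The remaining genes had these 95% intervals for Blnk minus empty: -0.70 to 0.34 for Ciita, -0.73 to 0.58 for H2-Eb1, -0.62 to 0.19 for Cd74, -0.49 to 0.26 for H2-DMb2, -0.35 to 0.37 for H2-Ab1 and -0.76 to -0.12 for H2-DMa (-0.44). On its other 2 sets the H2-DMb2 difference missed the threshold, at -1.05 (95% interval -1.73 to -0.38, adjusted p = 0.0707) and -0.98 (-1.76 to -0.20, adjusted p = 0.165). Of the sets shared with H2-DMb1, 1449580_s_at was called lower (-1.27, adjusted p = 0.02), with the arrays labelled Blnk at 3.01 ± 0.12, under the filter level, and 1418638_at differed by 0.02. Non-overlapping groups were seen for 4 of 9 genes with Blnk against empty (27.7% of all genes), 2 with YF against empty (17.7%) and 3 with Blnk against YF (28.3%). By limma, 0 of the 9 genes were called between YF and the empty vector (1 at an unadjusted p under 0.05, H2-Aa), where 0.0546% of all genes were called, 8 in number. H2-Eb1 spread widely there, at 3.39, 5.39 and 4.66. The 3 vector comparisons share arrays.

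**Figure D5:**
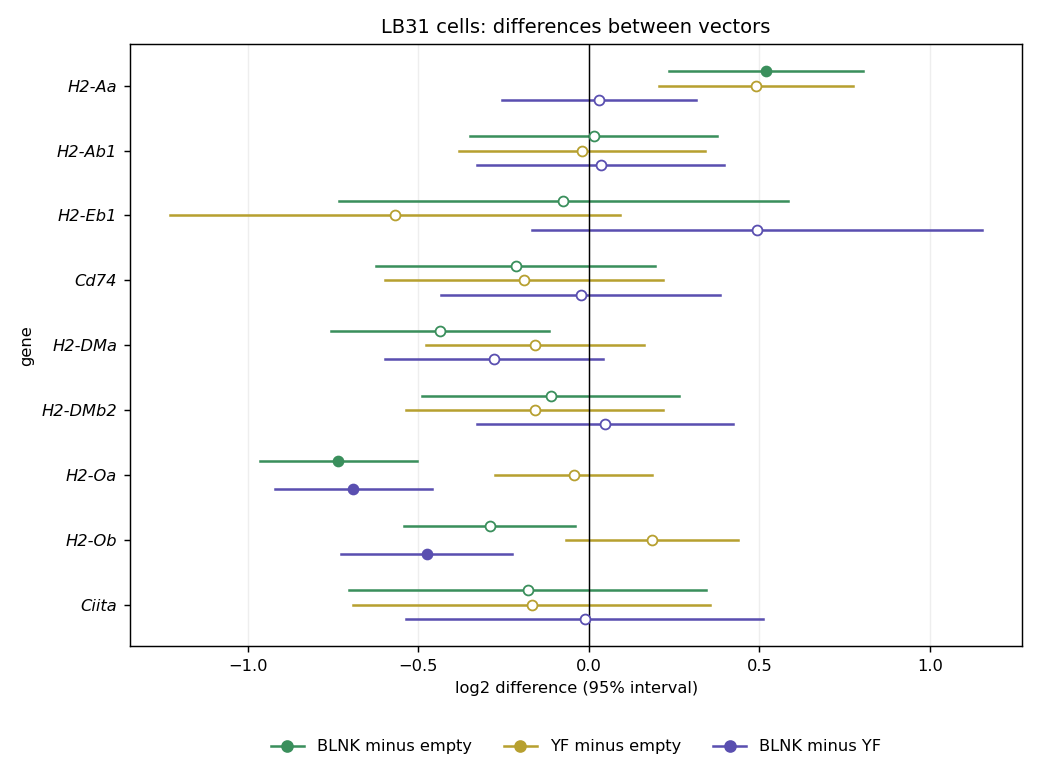
Log2 differences between LB31 vectors (horizontal axis) for 9 class II genes (vertical axis), with limma estimates over 3 against 3 arrays as points, 95% intervals as lines and filled points past an adjusted p of 0.05. H2-Oa lies at -0.74 and -0.69 for Blnk against empty and YF, H2-Aa at 0.52 for Blnk and 0.49 for YF, and most other intervals cross 0.

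Among the other probe sets in LB31, H2-Ab1 1425477_x_at gave 3.05, 2.81 and 2.54 with the empty vector, all under the filter level, then 4.53, 4.48 and 3.98 on arrays labelled Blnk and 4.67, 4.30 and 4.22 on those labelled YF. It was higher by 1.53 ± 0.18 on arrays labelled Blnk (adjusted p = 1.39e-05) and by 1.60 ± 0.18 with YF (adjusted p = 0.000571), whereas the set that stood for the gene differed by 0.01 and -0.02. The third set of the gene, 1451721_a_at, averaged 4.19 ± 0.53, 5.18 ± 0.49 and 4.92 ± 0.89 on arrays labelled empty, Blnk and YF. Of all 19 sets, 2 were higher and 1 lower under the Blnk label than with the empty vector (4.34% of probe sets called), 1 was higher under the YF label (0.0474%), and 2 were lower under Blnk than under YF (2.02%). Of 12 regulators of Ciita, 1 was higher and 2 lower on arrays labelled Blnk (6.33% of all genes called): Irf4, a factor that follows pre-B cell receptor signals, was higher by 1.31 (adjusted p = 9.49e-10), Spib differed by -0.85 (adjusted p = 4.53e-05) and Ifngr1 by -0.46 (adjusted p = 0.0133). The region's neighbors Tap2 (-0.50), Psmb8 (-0.32) and Psmb9 (-0.26) were lower as well. Pro-B and large pre-B cell markers averaged 9.61 to 9.82 on arrays labelled Blnk against 10.18 to 10.35 with the empty vector and 10.27 to 10.36 with YF. Of 7 tested, 2 were called lower under the Blnk label than with the empty vector (3.79% of all genes) and 5 were not called. Their median change was -0.20. The part of these markers in the H2-O values was not tested.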

How the data were processed

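Values came from the series' deposited table of MAS5 signal, 1 value per probe set and array; per the submitters' processing notes the authors computed it with MAS5, whose version, scaling between arrays and detection calls are not given in the sources used here. RNA (100 ng a sample) was hybridized to Affymetrix arrays, per the labels' protocols. The 64 control probe sets were left out of 45101. Probe sets were named from the platform annotation: 34945 had 1 symbol, 932 several and 9160 none, and 34741 of the single-symbol sets matched RefSeq by Entrez ID. Signals were turned into log2(signal + 4) and quantile normalized over all 21 arrays, so differences of dim genes are understated. Genes entered the test when 3 or more arrays held a deposited value above that array's percentile 40. One limma fit (version 3.58.1 in R 4.3.3, eBayes with an intensity trend) over all 7 groups gave every contrast. The low-signal filter admits a gene that is high in a single group, so genes tested are not all genes of a list.

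The class II genes, the pathway and marker lists and the alternatives were chosen with earlier results of these data known, and no test was adjusted over a list alone. The named genes were the 9 class II genes, up to 4 called genes of each list with the largest change, and the genes whose pattern was nearest to their mean over arrays. The script was tested on simulated data. Deviations of same-numbered arrays from their group means correlated at -0.093 to 0.248 over 18 pairs in marrow and -0.034 to 0.013 over 9 in LB31. In marrow the median was 0.007 and 2 pairs passed 0.1, the higher being replicate 3 of Cebpb LAP tg and Blnk KO. Numbers were not used to pair samples. Alternatives were the deposited scale, median centering, pseudocounts of 1 and 16, another filter or none, every probe set, no intensity trend, fits within marrow or within LB31, a replicate block, and each array left out. Motifs were searched in RefSeq promoters with Python 3.11.15, and figures drawn with matplotlib 3.10.9. No scan date or batch was in the sources used here. The number of arrays limits the precision.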

Additional observations from a re-analysis of the deposited data

Results flagged for a closer look

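For 6 class II genes the difference made by the LAP transgene itself differed between Blnk KO and Blnk-sufficient marrow, by the limma interaction term: H2-DMb2 (-2.49), H2-Aa (-2.26), Cd74 (-2.04), H2-Eb1 (-1.96), H2-Ab1 (-0.98) and H2-DMa (-0.91), each on the log2 scale and more negative in Blnk KO marrow. The groups of 3 arrays were too small to look for single arrays far from the rest.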

How the results depend on the processing

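Of 3051 values of single genes under another setting, 2983 kept their direction and their side of the threshold, 61 lost the call, 6 gained one and 1 turned over: H2-DMb2 in LB31 with the empty vector against Blnk KO/LAP tg marrow, -0.60 on the deposited scale. The count of genes called in Cebpb LAP tg against wild-type marrow was 5, and 3 on the deposited scale, 3 without the intensity trend and 2 within marrow. For Blnk against the empty vector it was 2, and 1 on the deposited scale, 1 with a pseudocount of 16 and 1 without the intensity trend. For Blnk against YF it was 2, and 1 without the trend. For YF against empty it was 0, and 1 on the deposited scale (H2-Aa) and 2 with median centering (H2-Aa and H2-Ob). With single arrays left out the counts ran from 2 to 5 for Cebpb LAP tg against wild-type, 4 to 6 for the interaction, 1 to 2 for Blnk against empty, 0 to 0 for YF against empty, 1 to 2 for Blnk against YF, 8 to 9 for LB31 against Blnk KO marrow, 7 to 8 against Blnk KO/LAP tg marrow, and 9 to 9 for the other marrow comparisons. The cause of these moves was not tested.

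The replicate block, though the numbers are not stated to pair the arrays, changed no call among 99 values: 9 genes remained called in Blnk KO against wild-type marrow and 5 in Cebpb LAP tg against wild-type.

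Scaling moved the share of all called genes that were higher: in Blnk KO against wild-type marrow it was 50.3%, 89.9% on the deposited scale and 33.6% with median centering, and in the double genotype 53.8%, 86.5% and 40.9%. In Cebpb LAP tg marrow it was 50.3%, 40.1% and 33.7%, and for the double genotype against Cebpb LAP tg 54.7%, 91.1% and 50.5%. In LB31 it was 40.2%, 65.5% and 82.7% for Blnk against empty, 62.5%, 90.8% and 97.0% for YF against empty, and 37.8%, 11.1% and 20.9% for Blnk against YF. Against Blnk KO marrow LB31 went from 49.6% to 22.9% and 58.1%, and against the double genotype from 48.3% to 20.0% and 57.9%. On the deposited scale the median change of all genes reached 0.39 between marrow groups (double genotype against Cebpb LAP tg), where it was 0.02 with quantile normalization. For LB31 against the double genotype it was -0.46, where it was 0.04 with quantile normalization.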
